A study of Mus musculus with 12 samples.

Results

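The genes described here encode the machinery by which nerve terminals release transmitter from synaptic vesicles. They are 46 gene symbols, chosen by name as synaptotagmins, SNARE proteins, complexins, active zone proteins and synaptic vesicle proteins, out of 33024 symbols in the count table. The choice was by gene name and function, made with earlier results of these data known, and all 46 passed the expression filter that left 16059 genes for testing. The counts came from the cortex of 12 C57BL/6 mice, 7 in the Control group (labelled Vehicle) and 5 in the EtOH group. In the study's account, EtOH mice of 30 days of age could choose at night, for 12 h, between water and 20% (v/v) ethanol over 35 sessions, and Control mice had water only. Both groups then spent 14 days without ethanol, went through behavioural tests and were perfused with saline before the cortex was taken. The mice were wildtype and carried no transgene, and the comparison asks what remained different in the cortex after drinking had stopped.

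Transmitter release is a fusion reaction between the vesicle and the plasma membrane. Synaptobrevin (Vamp1, Vamp2) on the vesicle zippers with syntaxin (Stx1a) and Snap25 on the plasma membrane, Munc13 proteins (Unc13a to Unc13c) and RIM proteins (Rims1 to Rims3) prime the vesicle at the active zone, complexins clamp and promote the primed state, and synaptotagmins couple fusion to the entry of Ca2+. After fusion, NSF with its adaptors takes the SNARE complex apart for another round. Most of these proteins come in families whose members differ between brain regions and neuron types, so that in bulk tissue a level reflects both the cells present and their expression.

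Members took up between 1.89% and 2.10% of all counts in each library, and totals ran from 31768092 to 42183041 counts, with Control 5 and EtOH 1 sequenced more deeply than the others. The cortical label was checked with Slc17a7, the vesicular glutamate transporter of excitatory neurons of the cortex and hippocampus. It was at 1817 to 2197 CPM (each count over its TMM-scaled library total) in Control and 1682 to 2213 CPM in EtOH. Because both tissues express it, this level cannot show that the groups held the same tissue. Markers of neighbouring structures moved with the groups. All 12 listed markers of striatal spiny neurons were called lower in EtOH, with sums of 1533 to 3345 CPM in Control and 517 to 620 CPM in EtOH, and the lowest Control sum belonged to Control 7. Of 9 hippocampal markers 6 were called higher, with sums of 328 to 459 CPM in Control and 539 to 624 CPM in EtOH. Of 10 GABA interneuron markers 4 were called lower and 1 higher. Gad1, Gad2 and Slc32a1 of this list are also expressed by GABA neurons of the striatum. None of 10 general neuronal markers was called by edgeR. At any fold change 5 of these had an adjusted p under 0.05 and were lower, and 1 was higher. The sum of the general neuronal markers was lower in every EtOH library (3758 to 3917 CPM) than in every Control library (4058 to 4241 CPM). Oligodendrocyte markers were called lower for 2 of 8 genes and were lower at any fold change for 7 of 8, with the sum in EtOH 2, at 5308 CPM, inside the Control range of 4429 to 5881 CPM. Thalamic relay neuron markers had 1 of 8 called higher and 1 lower, cortical excitatory neuron markers 1 of 10 in each direction and astrocyte markers 1 of 8 higher, while microglial markers had none of 8 called and 5 lower at any fold change. No listed marker was at 0 in any library. In bulk tissue, fewer cells of a type and less RNA per cell cannot be told apart, nor can a difference between the groups in the tissue taken. The part of these shifts in the results below was not tested. Control 5 stood apart among the controls in several members, as given with each of them. Exons of 33 of the 46 members, among them 5 of the 6 called below, overlap another annotated gene, whose reads the counting may have shared.

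The promoters of the 2 members with the largest called change in each direction were read from the GRCm39 genome, to set the sequences of genes that were lower beside those of genes that were higher. Each sequence is the 250 bases before the annotated canonical start site, 5′ to 3′ on the gene's own strand, with GC boxes (GGGCGG, or CCGCCC where the box lies on the other strand) in capitals. Syt6 lies at chr3:103483208-103483457 on the plus strand, Sv2c at chr13:96269086-96269335 on the minus strand, Syt10 at chr15:89726173-89726422 on the minus strand and Unc13b at chr4:43058690-43058939 on the plus strand.
Syt6: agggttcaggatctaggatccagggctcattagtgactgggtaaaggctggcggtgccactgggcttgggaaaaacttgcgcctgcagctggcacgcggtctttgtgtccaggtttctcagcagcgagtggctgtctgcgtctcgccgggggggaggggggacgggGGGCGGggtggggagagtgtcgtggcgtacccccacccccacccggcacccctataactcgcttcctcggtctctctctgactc
Sv2c: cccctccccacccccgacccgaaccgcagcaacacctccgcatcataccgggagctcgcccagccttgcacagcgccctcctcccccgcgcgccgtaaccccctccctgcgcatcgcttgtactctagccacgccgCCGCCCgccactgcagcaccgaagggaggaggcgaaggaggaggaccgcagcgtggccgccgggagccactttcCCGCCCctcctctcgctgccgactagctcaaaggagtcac
Syt10: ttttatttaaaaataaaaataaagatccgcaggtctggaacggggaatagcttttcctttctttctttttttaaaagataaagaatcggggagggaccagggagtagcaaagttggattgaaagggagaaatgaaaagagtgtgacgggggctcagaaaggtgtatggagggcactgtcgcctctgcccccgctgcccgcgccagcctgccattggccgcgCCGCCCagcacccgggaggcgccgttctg
Unc13b: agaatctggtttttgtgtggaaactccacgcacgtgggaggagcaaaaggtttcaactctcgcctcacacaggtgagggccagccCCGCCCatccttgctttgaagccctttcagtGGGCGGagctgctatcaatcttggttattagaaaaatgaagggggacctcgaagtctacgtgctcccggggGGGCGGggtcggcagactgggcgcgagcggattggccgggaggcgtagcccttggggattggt
The first pair belongs to genes that were lower in EtOH and the second pair to genes that were higher, and all 4 hold GC boxes on either strand. The same letters were found in 24 of the 46 members' promoters and in 47.6% of 14574 tested protein-coding genes. A cyclic AMP response element (TGACGTCA) was in none of the 46 and in 1.97% of all promoters, and a TATA box (TATAAA) was in 4 members (Syt12, Snap25, Unc13a and Rab3b) against 7.35% of all. Median GC content was 56.2% for the members and 56.4% for all.

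Members moved in both directions. Their median log2 fold change (EtOH against Control) was 0.01, beside 7.29e-05 over all genes tested, and single members ran from −2.06 to 0.98. With calls made where the adjusted p was under 0.05 and the log2 fold change exceeded 0.5 in either direction, 2 members were called higher, where 4.2% of all tested genes were, and 4 were called lower, where 4.09% of all genes were. This is 4.35% and 8.70% of the members. At the same adjusted p with no minimum fold change, 9 members were higher (19.6% of them, against 12.1% of all genes) and 12 were lower (26.1%, against 11.6%), and 25 passed in neither direction. The groups did not overlap for 3 members that were higher in EtOH (Syt16, Napb and Unc13b) and 6 that were lower (Syt5, Syt6, Rph3a, Syt12, Cplx2 and Sv2c), while 4.84% and 4.96% of all tested genes were separated in these directions. Summed over the 46 members, the level was 19126 to 21252 CPM in Control and 18846 to 19512 CPM in EtOH. These ranges overlap, with 3 of 5 EtOH mice below every control.

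**Figure D1:**
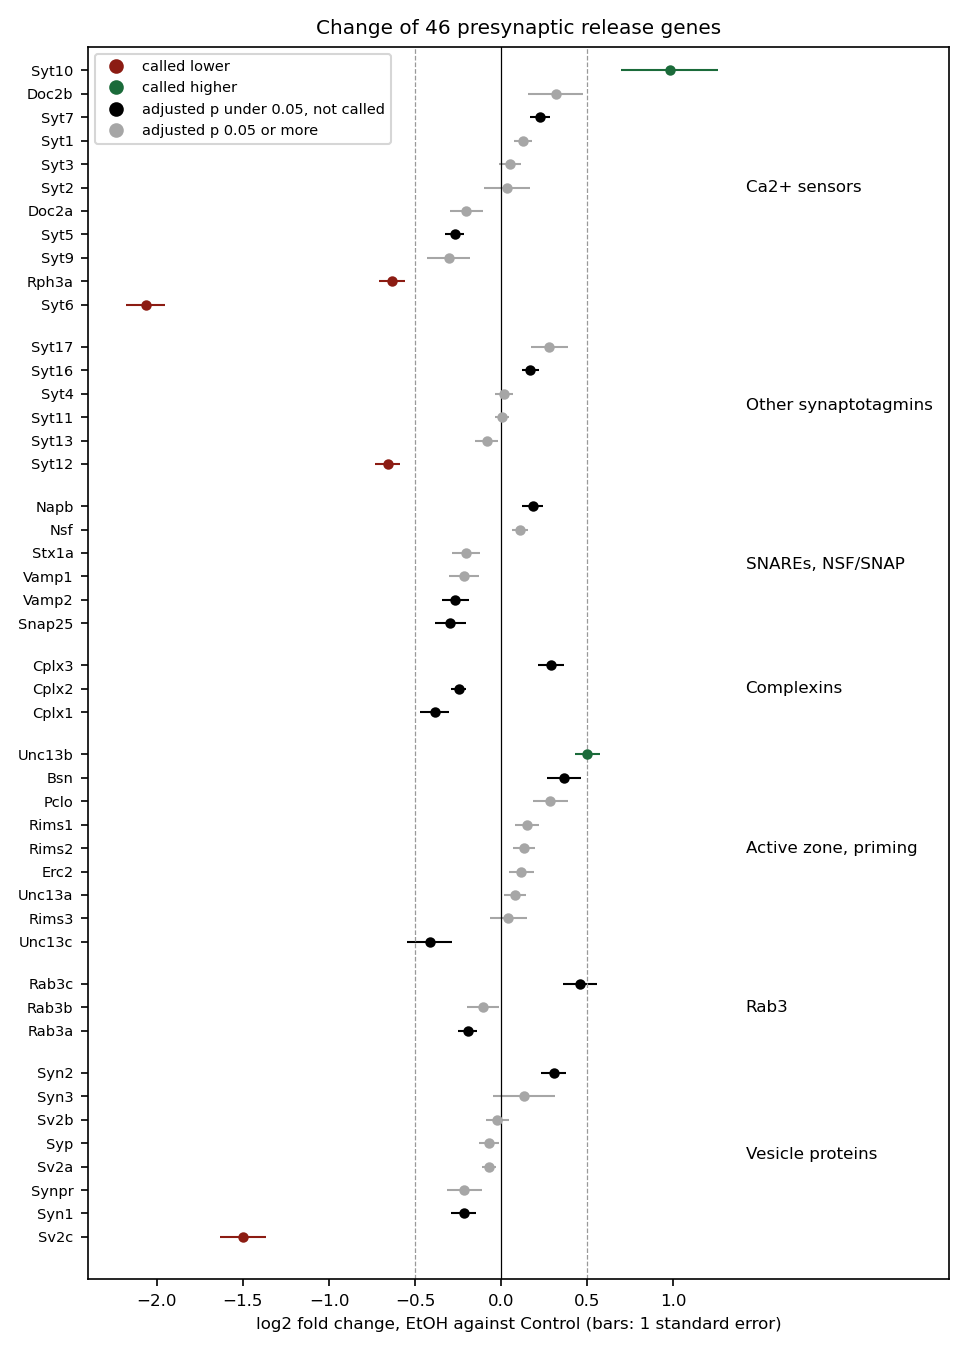
Log2 fold change (EtOH against Control, x axis) of the 46 members, grouped by role, with bars of 1 standard error and dashed lines at 0.5 in either direction. Syt6 (−2.06) and Sv2c (−1.50) lie far to the left, Syt10 (0.98) to the right, and most other members lie within the dashed lines.

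Among the Ca2+ sensors, Syt6 changed most. Syt6 (chromosome 3, 103482484 to 103552885) encodes a synaptotagmin that forms disulphide-linked dimers, and its transcript is used as a marker of corticothalamic neurons in the deepest cortical layer. Its level in Control was lowest at 54.4, with a median of 74.0 and a highest value of 80.7 CPM. The 5 EtOH mice had 14.9, 19.8, 14.6, 14.5 and 18.5 CPM. Every EtOH mouse was thus far below every Control mouse, and the log2 fold change was −2.06 (SE 0.11, adjusted p = 1.77e-09). Other genes of deep-layer cortical neurons went both ways. Foxp2 and Bcl11b are also expressed by striatal neurons. Foxp2 was called lower, at 19.1 to 31.9 CPM in Control and 9.22 to 14.2 CPM in EtOH. Tbr1 and Bcl11b fell by 0.40 and 0.45 on the log2 scale, and Fezf2 was called higher (0.60). The part of these genes and of the striatal markers given above in the fall of Syt6 was not tested.

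Rph3a, rabphilin, binds Rab3 on vesicles and carries Ca2+-binding C2 domains like those of synaptotagmins. In Control it ranged from 651 through a median of 702 to 817 CPM, and the EtOH mice had 430, 544, 422, 435 and 482 CPM. The groups did not overlap, and the gene (chromosome 5, 121078558 to 121225015) fell by 0.63 on the log2 scale (SE 0.07, adjusted p = 1e-05). The means were 717 ± 64.7 CPM (SD, n = 7) in Control and 462 ± 51.0 CPM (SD, n = 5) in EtOH.

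Syt10 was the only sensor called higher. This synaptotagmin, known from the olfactory bulb for its role in the release of insulin-like growth factor, had the lowest level per exon length of all 46 members in Control, 0.426 CPM per kb. Control mice ranged from 1.67 through a median of 4.37 to 8.11 CPM, the highest being Control 5. The EtOH mice had 9.27, 5.79, 10.2, 8.83 and 7.08 CPM. EtOH 2 and EtOH 5 lay below Control 5, so the groups overlapped, and the log2 fold change of 0.98 had a standard error of 0.28 (adjusted p = 0.0173). Leaving out any single mouse kept the call, with log2 fold changes between 0.84 and 1.23. The gene is on chromosome 15 at 89661213 to 89726172.

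The fast sensor of forebrain synapses, Syt1, was among the most abundant members and did not pass the test. Control mice spanned 1572 to 1915 CPM around a median of 1772, and EtOH mice had 1992, 1984, 1889, 1802 and 1945 CPM, of which 3 exceeded every control. Its log2 fold change was 0.13 (SE 0.05, adjusted p = 0.0798). In the fits with a mouse left out it passed only without Control 5, the highest control (0.0329). It also passed without both deeper libraries, of which Control 5 is one (0.0494). Syt7, the slower, high-affinity sensor of asynchronous release and facilitation, rose by 0.23 (SE 0.06, adjusted p = 0.00755), with 4 of 5 EtOH mice above all controls. Syt5 fell by 0.27 on the log2 scale (SE 0.05, adjusted p = 0.0017), with Control mice at 196 to 236 CPM and EtOH mice at 171 to 190 CPM, without overlap. The other 5 sensors, Syt2, Syt3, Syt9, Doc2a and Doc2b, did not pass. Doc2b, a high-affinity sensor of spontaneous release, had the widest standard error of these (0.16) around a log2 fold change of 0.32 and passed without Control 2 (0.42), and Syt2, the fast sensor of hindbrain synapses, scattered in EtOH between 37.6 and 71.7 CPM.

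Of the other 6 synaptotagmins, which were not counted here among the Ca2+ sensors, Syt12 was called lower. Syt12, on chromosome 19 at 4495157 to 4527880, lacks the residues that bind Ca2+. It was at 24.7 to 29.9 CPM in Control, with a median of 28.1, and at 18.8, 19.7, 15, 17.2 and 16.8 CPM in EtOH. The groups were well apart, and the log2 fold change was −0.66 (SE 0.07, adjusted p = 4.93e-06). Syt16 was higher in each EtOH mouse (92.0 to 104 CPM) than in any control (83.3 to 90.3 CPM), but by a log2 fold change of 0.17 (SE 0.05, adjusted p = 0.0162), which did not pass without EtOH 2 or EtOH 5 (adjusted p up to 0.0538). Syt4, Syt11, Syt13 and Syt17 did not pass. Syt11, the most abundant of the 6 per length at 99.9 CPM per kb in Control, had a log2 fold change of 0.005 (SE 0.04), and Syt17 had a log2 fold change of 0.28 (SE 0.11) with EtOH 2, at 48.0 CPM, below all controls and the other EtOH mice above them all. Without EtOH 2 it passed (0.39).

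Sv2c had the second largest change of the 46. SV2 proteins are glycoproteins of the vesicle membrane, and Sv2c is the member known to be most abundant in the basal ganglia. The gene lies on chromosome 13 at 96091102 to 96269085. Control mice ranged from 38.9 through a median of 57.5 to 66.2 CPM, and EtOH mice had 20.6, 21.0, 18.9, 14.9 and 19.2 CPM. No EtOH mouse reached the lowest control, which was Control 7. The part of the striatal marker shift given above in the fall of Sv2c was not tested. The log2 fold change was −1.50 (SE 0.13, adjusted p = 3.75e-07), and it was between −1.56 and −1.43 with any single mouse left out. Sv2a, the family member found at nearly all synapses, was at 550 to 585 CPM in Control and 529 to 554 CPM in EtOH, a log2 fold change of −0.07 (SE 0.04, adjusted p = 0.207), and Sv2b had a log2 fold change of −0.02 (SE 0.07). Sv2c made up 5.37% of the family's level per exon length in Control and 2.05% in EtOH.

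**Figure D2:**
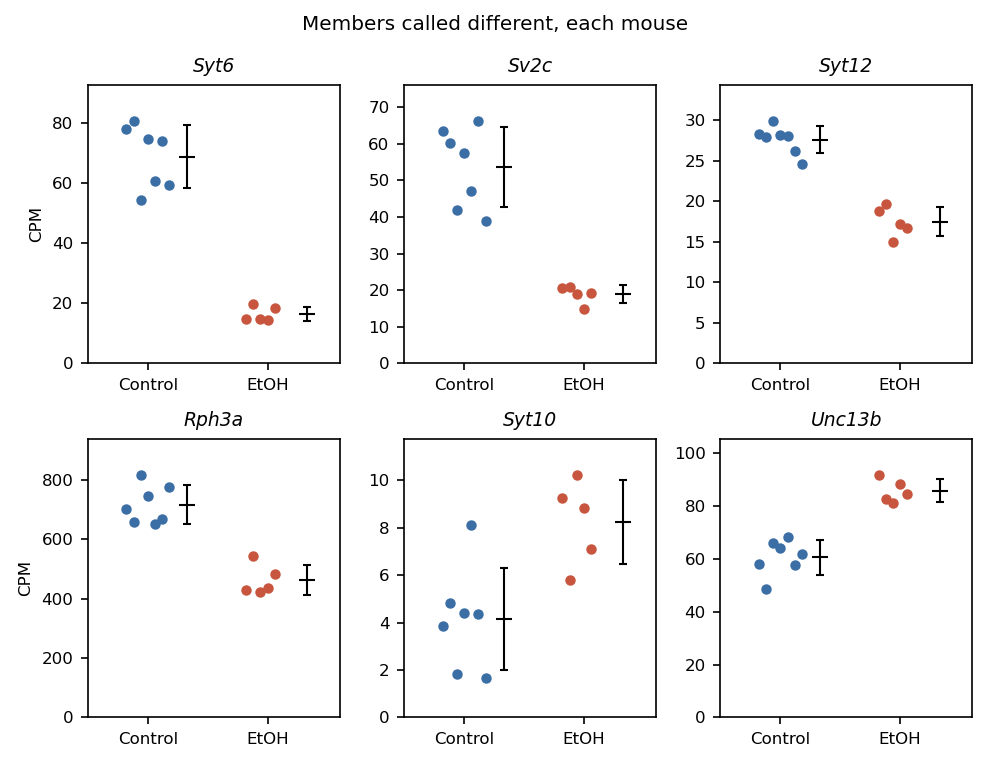
Level in CPM (y axis, from 0) of the 6 called members in each Control (blue, n = 7) and EtOH (red, n = 5) mouse, with the mean and SD beside the points. Syt6, Sv2c, Syt12 and Rph3a are lower and Unc13b is higher in EtOH with no overlap, whereas for Syt10 the highest control (8.11 CPM) exceeds 2 EtOH mice.

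At the active zone, 8 of 9 members had log2 fold changes above 0, though only 3 of the 9 passed the test in any direction. Most of these genes are long, and with the exon length trend described further on removed, Unc13a turned to −0.029 and Pclo, Rims2, Rims3 and Erc2 shrank to 0.14, 0.05, 0.02 and 0.05. Unc13b, one of the Munc13 priming factors, was called higher at the edge of the threshold. It was at 48.5 to 68.1 CPM in Control, with a median of 61.8, and at 91.8, 82.9, 81.1, 88.4 and 84.7 CPM in EtOH. All EtOH mice exceeded all controls, and the log2 fold change was 0.50 (SE 0.07, adjusted p = 7.83e-05). The adjusted p stayed under 0.05 with any mouse left out, but the fold change fell just under 0.5 without Control 1 (0.48), Control 2 (0.45), Control 6 (0.49), EtOH 1 (0.47) or EtOH 4 (0.48), so that the call itself held in 7 of 12 such fits. The call was also lost with the exon length trend removed (0.345), with upper quartile factors (0.4954) and with the replicate block (0.4995). The gene, on chromosome 4 at 43058940 to 43264885, has 22777 bases of annotated exons, the most of all members.

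Unc13a, the Munc13 protein on which most forebrain synapses depend, did not pass the test. Control mice had 418 to 564 CPM around a median of 482, the EtOH mice had 523, 508, 467, 536 and 547 CPM, all inside that range, and the log2 fold change was 0.08 (SE 0.06, adjusted p = 0.385). Unc13c, a family member best known from the cerebellum, fell by 0.42 on the log2 scale (SE 0.13, adjusted p = 0.0289), with Control values between 31.6 and 56.1 CPM and EtOH values between 30.4 and 38.1 CPM. It passed in 7 of 12 fits with a mouse left out, and not without Control 1, Control 2, Control 4, EtOH 4 or EtOH 5, with adjusted p up to 0.0695. Bsn, bassoon, is a giant scaffold that organizes the active zone. It rose by 0.37 (SE 0.10, adjusted p = 0.0124), from a Control range of 445 to 786 CPM with a median of 623 to 787, 707, 755, 894 and 783 CPM in EtOH. The highest control was Control 5, and without it the remaining controls ended at 637 CPM, below every EtOH mouse. Its partner Pclo, piccolo, had a log2 fold change of 0.29 (SE 0.10) and an adjusted p of 0.0516, and it passed without Control 5 (0.36). Rims1, Rims2, Rims3 and Erc2, the RIM and CAST scaffolds that tether Ca2+ channels and vesicles, had log2 fold changes of 0.15, 0.13, 0.04 and 0.12 and did not pass, apart from Rims1 without Control 7 (0.20).

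The abundant SNARE proteins had negative log2 fold changes. Snap25 was at 1960 to 2840 CPM in Control, with a median of 2560, and at 1779, 2233, 1928, 1905 and 1979 CPM in EtOH. It fell by 0.30 on the log2 scale (SE 0.09, adjusted p = 0.0245), with 3 EtOH mice below all controls, and it no longer passed without Control 3 (0.0518), EtOH 1 (0.0700) or EtOH 4 (0.0510). Vamp2, the main synaptobrevin of the forebrain, had the highest level per length of the 46 genes, 374 CPM per kb in Control. It ranged over 1108 to 1585 CPM in Control, with a median of 1495, while the EtOH mice had 1091, 1147, 1375, 1226 and 1220 CPM. Control 5 was the lowest control, and the next was at 1483 CPM, above all EtOH mice. The fall of 0.27 on the log2 scale (SE 0.08, adjusted p = 0.0206) did not pass without EtOH 1 (0.0634). Stx1a had Control values of 261 to 343 CPM around 286 and EtOH values of 250, 236, 223, 291 and 286 CPM, and it missed the threshold with a log2 fold change of −0.21 (SE 0.08, adjusted p = 0.0755), passing without Control 5 (0.0312) or EtOH 4 (0.0392). Nsf did not pass, and Vamp1 passed only without Control 4, Control 5 or EtOH 2 (log2 fold change down to −0.28) in the fits with a mouse left out. Napb, beta-SNAP, which recruits NSF to spent complexes, rose by 0.18 (SE 0.06, adjusted p = 0.0397) with each EtOH mouse, up to 586 CPM, above the highest control at 524 CPM. It passed in 5 of the 12 fits with a mouse left out, and its adjusted p reached 0.109 without EtOH 3.

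All 3 complexins passed the test, in both directions. Cplx1 was at 572 to 844 CPM in Control, with a median of 771 and Control 5 as the lowest, and at 497, 630, 607, 562 and 602 CPM in EtOH. The fall of 0.39 on the log2 scale (SE 0.08, adjusted p = 0.00303) passed with any mouse left out, and the controls other than Control 5 began at 736 CPM. Cplx2 fell by 0.25 (SE 0.04, adjusted p = 0.000672) with no overlap between Control (1453 to 1645 CPM) and EtOH (1245 to 1326 CPM). The scarce Cplx3, known from ribbon synapses of the retina and from the deepest cortical neurons, rose by 0.29 (SE 0.07, adjusted p = 0.01), with Control mice at 14.2 to 16.8 CPM and 4 of 5 EtOH mice above them all, up to 20.4 CPM.

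Rab3 proteins are the small GTPases that mark vesicles for docking. Rab3a, the main one of the brain, was at 601 to 758 CPM in Control, with a median of 677, and at 558, 575, 610, 628 and 616 CPM in EtOH. The fall of 0.19 on the log2 scale (SE 0.06, adjusted p = 0.0193) did not pass without EtOH 1 (0.0607). Rab3c rose by 0.46 (SE 0.10, adjusted p = 0.00249), from a Control range of 322 to 468 CPM to an EtOH range of 406 to 591 CPM, with 4 of 5 EtOH mice above every control. It reached the fold change threshold without Control 5 or without EtOH 2. Rab3b did not pass, at a log2 fold change of −0.10 (SE 0.09).

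Of the remaining vesicle proteins, the synapsins, which tether vesicles to each other in the reserve pool, moved apart. Syn1 fell by 0.22 on the log2 scale (SE 0.07, adjusted p = 0.0393), from a Control range of 902 to 1214 CPM to an EtOH range of 817 to 1025 CPM, and passed in 4 of 12 fits with a mouse left out, with an adjusted p of up to 0.115 (without EtOH 1). Syn2 rose by 0.30 (SE 0.07, adjusted p = 0.00527), from a Control range of 482 to 529 CPM to an EtOH range of 502 to 705 CPM, with 4 of 5 EtOH mice above all controls. Syn3 did not pass, and Control 5, at 23.0 CPM, lay far above the other controls (8.36 to 12.6 CPM). Syn3 passed without Control 5 (log2 fold change 0.34) and without both deeper libraries (0.33, adjusted p = 0.0406), beside 0.13 with all mice. Syp, synaptophysin, the most commonly used marker of synaptic vesicles, did not pass. Control mice had 768 to 894 CPM around 809, the EtOH mice had 793, 684, 768, 846 and 777 CPM, and the log2 fold change was −0.07 (SE 0.06, adjusted p = 0.393). Synpr, synaptoporin, its relative in hippocampal mossy fibres, had a log2 fold change of −0.21 (SE 0.10) and did not pass.

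**Figure D3:**
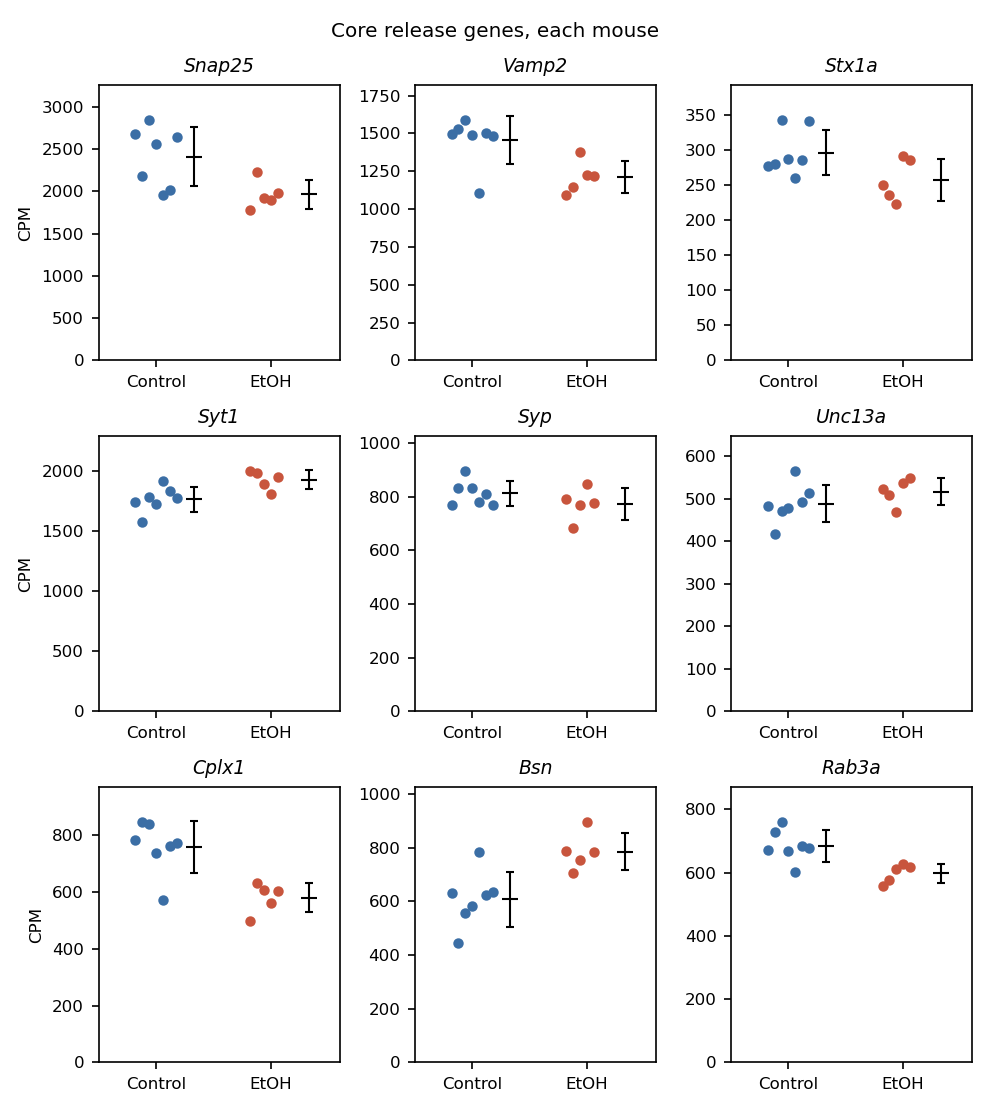
Level in CPM (y axis, from 0) of 9 core release genes in each Control (blue, n = 7) and EtOH (red, n = 5) mouse, with the mean and SD beside the points. Control 5 is the single low control for Vamp2 (1108 CPM) and Cplx1 (572 CPM) and the single high control for Bsn (786 CPM).

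Per exon length, the order of the members in Control was led by Vamp2 (374 CPM per kb), Cplx2 (313), Syn1 (262), Snap25 (241), Rab3a (227) and Cplx1 (207), followed by Syt1 (137), Syp (134) and Syt11 (99.9). Syt6 stood at 11.6, Sv2c at 5.52, Syt12 at 4.00 and Unc13b at 2.66 CPM per kb, so that of the 6 called members only Rph3a, at 72.4 CPM per kb, belonged to the abundant part of the machinery. The 6 most abundant members per length all had negative log2 fold changes and all passed the test, at sizes of 0.19 to 0.39, a pattern noticed after the values had been seen. A level per length favours short genes, and 5 of these 6 have 3011 to 4936 bases of exons. With the exon length trend removed, Syn1 (−0.16, adjusted p = 0.0849) and Rab3a (−0.12, adjusted p = 0.0767) no longer passed and the other 4 did. Without the 6 called members, the other 40 had a median log2 fold change of 0.03, with 22 above 0 and 18 below.

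Whether the balance within families moved was asked with ratios of 2 members inside each library, which do not depend on the scaling between libraries. For 17 pairs, each set against 1 reference member of its family chosen by name (not in each family the most abundant here, since Cplx2 exceeded Cplx1 and Doc2b exceeded Doc2a per length), the mean log2 ratio was compared between groups by exact permutation (two-sided, all 792 ways to split the mice, smallest possible p of 0.00126), and p was adjusted over the 17 pairs. The ratio differed for 5 pairs. Sv2c to Sv2a had a mean log2 ratio of −3.44 ± 0.29 (SD, n = 7) in Control and −4.85 ± 0.22 (SD, n = 5) in EtOH, a difference of −1.41 (exact permutation adjusted p = 0.00716). Syn2 to Syn1 moved from −1.11 ± 0.11 to −0.60 ± 0.15, a difference of 0.51 (exact permutation adjusted p = 0.00716), and Unc13b to Unc13a from −3.01 ± 0.11 to −2.59 ± 0.07, a difference of 0.42 (exact permutation adjusted p = 0.00716). These 3 ratios did not overlap between groups.

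The ratio of Cplx3 to Cplx1 differed by 0.66 (SE 0.13, exact permutation adjusted p = 0.0107) and that of Rab3c to Rab3a by 0.65 (SE 0.14, exact permutation adjusted p = 0.0172), with overlapping mice in each. In shares of the family's level per length, Syn2 went from 14.5% to 19.4% of the synapsins, Rab3c from 11.6% to 16.8% of the Rab3 genes, Unc13b from 7.15% to 9.71% of the Munc13 genes, Cplx3 from 0.944% to 1.41% of the complexins and Syt6 from 2.40% to 0.571% of the 14 synaptotagmins. The major member stayed the major one in each of these families. All 5 pairs passed with any mouse left out. Of the 12 pairs that did not pass, Vamp1 to Vamp2 (0.05, SE 0.11) and Sv2b to Sv2a (0.05, SE 0.08) lay near 0, whereas Doc2b to Doc2a (0.56, SE 0.25), Unc13c to Unc13a (−0.47, SE 0.18) and Syn3 to Syn1 (0.42, SE 0.23) had sizes like those of passing pairs with wider errors. Doc2b to Doc2a passed without Control 2 (difference 0.71), and Syn3 to Syn1 (0.61) and Cplx2 to Cplx1 (0.19) passed without Control 5.

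**Figure D4:**
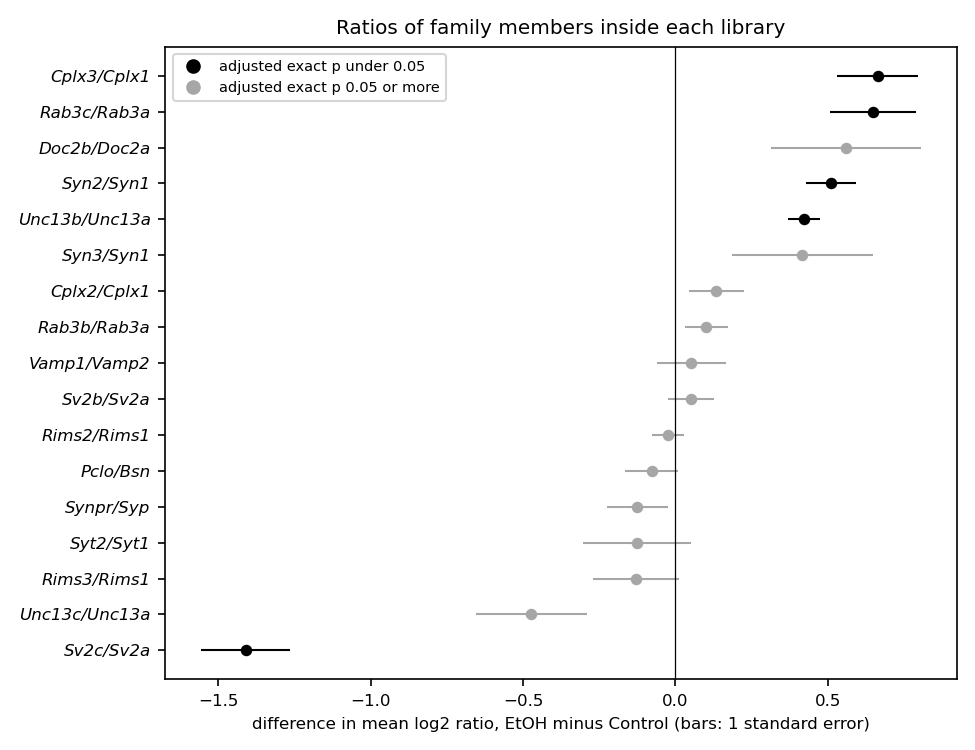
Difference (EtOH minus Control) in the mean log2 ratio of 2 family members inside each library (x axis) for 17 pairs, with bars of 1 standard error. Black points mark the 5 pairs with an adjusted exact p under 0.05, of which Sv2c/Sv2a (−1.41) is the only one below 0.

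In 3 of these 5 pairs the partner that gained is the longer transcript, and over all 46 members the log2 fold change went with exon length. Syn2 has 11325 bases of annotated exons against 4135 in Syn1, Rab3c 12052 against 3011 in Rab3a and Unc13b 22777 against 16524 in Unc13a, while Cplx3 (3066) and Cplx1 (3659) are alike, as are Sv2c (9700) and Sv2a (9526). Split at their median length, the 23 shorter members had a median log2 fold change of −0.19, with 15 below 0, and the 23 longer members one of 0.13, with 16 above 0. As a description across genes, which are not independent, Spearman's rho between exon length and log2 fold change was 0.468 over the 46 members, 0.206 over 15631 tested genes with a length and 0.342 over the 9850 of these with at least 10 CPM. It was above 0 in each of these sets.

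In each mouse, the mean log2 CPM of the longer members exceeded that of the shorter ones by 0.193 to 0.599 in Control and by 0.565 to 0.690 in EtOH. Control 5 was the highest control, inside the EtOH range, and the other 6 controls ended at 0.384. When each library's own trend of level with exon length was taken out before testing, 7 members were higher and 11 were lower at an adjusted p under 0.05, the 4 calls of lower members held, and 5 members changed sides of the threshold. Syn1, Rab3a, Napb and Syt16 no longer passed and Vamp1 did. Unc13b then had a log2 fold change of 0.345 (adjusted p = 0.00108), below the call. This step took out only a part of the length relation among the members. Spearman's rho over them was still 0.319, and the median log2 fold changes were −0.12 for the shorter and 0.05 for the longer members. RNA quality of the samples is not given in the sources used here, and its part in the length relation was not tested.

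**Figure D5:**
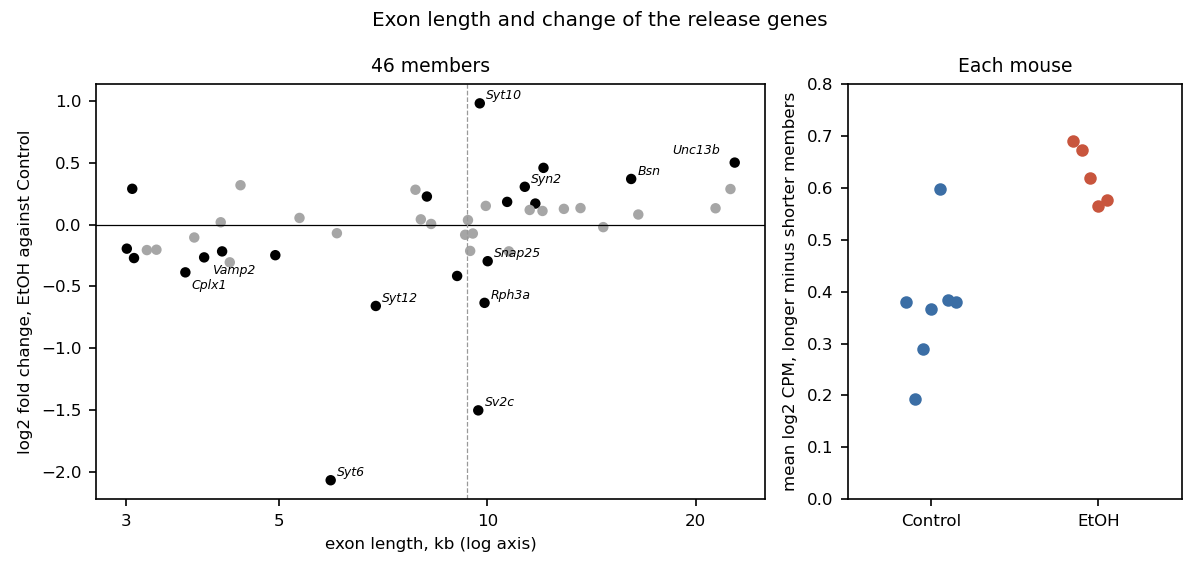
Left, log2 fold change (EtOH against Control) of the 46 members against exon length in kb (log axis), with members of adjusted p under 0.05 in black and a dashed line at the median length. Right, the mean log2 CPM of longer minus shorter members in each mouse, where Control 5 (0.599) is the only control within the EtOH range of 0.565 to 0.690.

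Of 53 other genes of the release pathway listed beside the members, 50 were tested, and Cplx4, Syt8 and Sytl3 did not reach the expression filter. Their median log2 fold change was 0.09, with 5 called higher and 2 lower (4.2% and 4.09% of all tested genes were), and at any fold change 12 were higher and 5 lower (12.1% and 11.6% of all tested genes were). Slc17a6, the vesicular glutamate transporter of subcortical and some hippocampal neurons, rose by 1.08 (SE 0.12, adjusted p = 8.34e-06), from a Control range of 12.5 to 17.8 CPM to an EtOH range of 21.9 to 38.9 CPM. Ppfia4, a liprin-alpha scaffold of the active zone, rose by 0.55 (SE 0.06, adjusted p = 5e-06), from a Control range of 58.1 to 75.6 CPM to an EtOH range of 94.2 to 105 CPM. Stxbp5l, a tomosyn and syntaxin-binding inhibitor of fusion, rose by 0.71 (SE 0.22, adjusted p = 0.0277), with overlapping ranges of 20.4 to 63.0 CPM and 46.1 to 66.6 CPM. The synaptotagmin-like genes Sytl1 (0.87) and Sytl4 (1.25) were called at levels of at most 1.96 and 1.07 CPM. Slc32a1, the vesicular transporter of GABA and one of the GABA interneuron markers above, fell by 0.77 on the log2 scale (SE 0.09, adjusted p = 1.16e-05). It went from a Control range of 92.3 to 155 CPM to an EtOH range of 70.4 to 77.6 CPM. Slc17a8, a glutamate transporter of scattered neuron populations, fell by 0.68 (SE 0.19, adjusted p = 0.0157).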

How the data were processed

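RNA from the cortex of 12 mice, 7 Control and 5 EtOH, was extracted and sequenced by BGI on a DNBSEQ instrument. The authors checked reads with FastQC 0.11.9, used STAR for alignment to GRCm39 with Gencode release 28, counted them with featureCounts and deposited expected counts per gene symbol without normalization (per the labels, their own comparison used DESeq2). The counts were not whole for 61 symbols, none of them a member, and were rounded here. Strand and multi-mapping settings are not given in the sources used here, so members whose exons overlap another gene are uncertain, as are paralogs. Groups came from the sample labels, and 0 columns were left unmatched. Drinking times and doses are from the study's methods. The members and gene lists were chosen with earlier results of these data known.

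Genes were kept with filterByExpr, scaled with TMM and compared by edgeR's quasi-likelihood test, with p adjusted by Benjamini-Hochberg over all 16059 genes (R 4.3.3, edgeR 4.0.16). All adjusted p-values in the report are from this test unless an exact permutation test is named. A call needed 2 things, an adjusted p under 0.05 and a size of the log2 fold change over 0.5. A change, rise or fall without a call refers to the adjusted p alone. Called members and 9 core members are described with the values of the mice, the other members more briefly by ranges and counts, and the other release genes where called. Ratios of family members used log2 CPM with a prior count of 2. CPM per kb used exon lengths, and positions came from Gencode release 39 of the same build. CPM was also summed over marker lists.

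Totals of 31768092 to 42183041 counts put 3 counts at 0.0944 CPM or less, and the member with the lowest Control mean, Syt10, was at 4.15 CPM. The 12 libraries are of different mice by their labels, and every pair of replicates differed by more than sampling noise, the closest with a chi-square of 7.84 per degree of freedom. Replicate numbers are shared by the groups but the labels tie no mice together. Alternatives were DESeq2 1.42.0, limma voom 3.58.1, other scaling factors, filters and fold change minimums, a replicate block, other prior counts and each mouse left out. Removal of the exon length trend and leaving out both deeper libraries were alternatives chosen after seeing the data. Counts were simulated for the EtOH against Control comparison with 200 genes moved by 1 on the log2 scale. On these, edgeR recovered 171 of 200 with 6 false calls over 15909 genes, DESeq2 177 with 8 and limma voom 171 with 5. With the length trend removed, edgeR recovered 165 with 7 false calls over 15491 genes. The simulated libraries held no trend with exon length, so they cannot show how well its removal works.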

Additional observations from a re-analysis of the deposited data

Results flagged for a closer look

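A mouse lay far from the rest of its group in 7 of 146 comparisons of a group's values with Dixon's test, where chance gives about 7.3. In Control 5 this applied to Vamp2, lowest at 10.11 on the log2 CPM scale with the next control at 10.53, to Cplx1, lowest at 9.159 with the next at 9.524, and to Syn3, highest at 4.53 with the next at 3.664. The same mouse was highest in the log2 ratio of Cplx3 to Cplx1 (−5.221, next −5.606) and in that of Syn3 to Syn1 (−5.288, next −6.391). Control 7 was lowest in the log2 ratio of Rims2 to Rims1 (−1.412, next −1.272). In the EtOH group, EtOH 3 was lowest in Syt13, at 7.614 on the log2 CPM scale with the next mouse at 7.838. Control 5 thus accounted for 5 of the 7, and it is one of the deeper libraries. The cause was not tested.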

How the results depend on the processing

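The 4 members called lower (Syt6, Sv2c, Syt12 and Rph3a) were called lower under DESeq2, limma voom, other scaling factors, other filters, the replicate block, the length trend and each mouse left out (4 to 4 members), and their number changed with the fold change minimum only, to 12 with none and 2 with a minimum of 1. Members called higher numbered 9 with no minimum and 0 with a minimum of 1. They numbered 1 with upper quartile factors, with the replicate block and with the exon length trend removed, which left Syt10 and not Unc13b, and 1 to 3 with a mouse left out. Members with an adjusted p under 0.05 at any fold change numbered 8 to 12 higher and 8 to 14 lower with a mouse left out, 8 higher and 9 lower with the replicate block, and 12 higher and 12 lower without both deeper libraries. With DESeq2 they numbered 11 higher and 12 lower. Unc13a turned to a log2 fold change of −0.029 with the length trend removed.

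The replicate numbers do not pair the mice: same-numbered mice had correlations of deviations between −0.108 and 0.018 over 5 numbers, and none correlated best with its own number. With the replicate block, 0 of the 17 family ratios passed, since 5 pairs allow no sign-flip p below 0.0625. Between 5 and 7 ratios passed with a mouse left out. The Vamp1 to Vamp2 difference lay between −0.01584 and 0.1037 in those fits and the Rims2 to Rims1 difference between −0.05272 and 0.01262, so both changed sign.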
